A study of Homo sapiens with 36 samples.

Results

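The 9 genes described here encode proteins that break down and remodel the matrix around cells. They are the matrix metalloproteinases MMP1, MMP2, MMP3 and MMP14, the tissue inhibitors of metalloproteinases TIMP1, TIMP2 and TIMP3, and the urokinase-type plasminogen activator PLAU with its receptor PLAUR. They were taken by symbol, and all 9 symbols were found in a count table of 60675 genes. Their transcripts were measured by RNA sequencing in 36 libraries of 2 established human tumour lines, the astrocytoma line SW1783 and the colorectal adenocarcinoma line HT29, in 12 groups of 3 replicates. All cells were exposed for 24 h. In batch A of each line, cells were given vehicle or 10 µM wortmannin, which blocks the lipid kinase PI3K and was the positive control. In batch B, cells were given vehicle or a water extract of Aconitum carmichaeli Debeaux (ACD) at 20 (low), 100 (medium) or 500 µg/mL (high). The labels give the vehicle as 0.1% DMSO and the design text of the series as 2% DMSO. In the study's methods, PBS with 2% DMSO is both the vehicle and the solvent of the extract stock. That stock was diluted into the medium of the wells, so 2% is the content before dilution. Each line stood alone in culture, without the fibroblasts, vessels and immune cells that make much of this enzyme system in a tumour. Nothing in the labels says that replicates were separate cultures, so p-values measure the spread between these libraries, which may be technical.

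Matrix metalloproteinases are zinc-dependent endopeptidases made as inactive precursors, and TIMPs bind and block the active enzymes. MMP14 sits in the cell membrane, where it cleaves collagen and, with TIMP2 as a bridge, activates the secreted gelatinase MMP2. PLAU bound to PLAUR turns plasminogen into plasmin, which breaks down fibrin and activates other proteases, MMP1 and MMP3 among them. The system is known from tumour invasion in both brain and colon. Transcript levels carry no information on secretion, precursor cleavage or enzyme activity.

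By the GENCODE v44 annotation of GRCh38, all 9 are protein-coding genes, and the counts cover their exons. MMP1, the interstitial collagenase (ENSG00000196611, chr11:102789401-102798160), and MMP3, stromelysin-1 (ENSG00000149968, chr11:102835801-102843609), lie close together on the minus strand. MMP2, gelatinase A, is ENSG00000087245 (chr16:55389700-55506691, plus strand), and MMP14 is ENSG00000157227 (chr14:22836560-22849041, plus strand). TIMP1 (ENSG00000102265, chrX:47582408-47586789) lies within SYN1, and TIMP3 (ENSG00000100234, chr22:32801705-32863041) lies within SYN3, each on the strand opposite to its host gene. TIMP2 is ENSG00000035862 (chr17:78852977-78925387, minus strand). PLAU is ENSG00000122861 (chr10:73909177-73917496, plus strand), and PLAUR is ENSG00000011422 (chr19:43646095-43670547, minus strand). Exons of MMP1 and MMP3 share 223 and 32 bases with the antisense gene WTAPP1, exons of PLAU share 915 bases with the antisense gene C10orf55, and exons of TIMP2 share 367 bases with an antisense gene and 224 bases with CEP295NL on the same strand. MMP2 shares 174 exonic bases with a second gene on its strand. The kit was directional but the strand setting of the counting is not given in the sources used here, so reads in these shared bases carry an uncertainty.

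RefSeq promoter windows on GRCh38.p14, from 250 bases before a transcription start to 50 after it, were at hand for 5 of the 9 members, as 6 windows. They were searched on both strands for 3 motifs, none of whose matches overlapped another. The letters TGANTCA stood for an AP-1 site. The letters TATAAA stood for a TATA box. The letters GGGCGG stood for a GC box. The stretches below belong to the 3 members on which the results turn and for which a window was at hand, the most abundant protease, the most abundant inhibitor and the urokinase receptor. Capitals mark the motif that was found. The MMP14 stretch is chr14:22836335-22836554 on the plus strand, 250 to 31 bases before the start, with 1 GC box. The TIMP1 stretch is chrX:47582186-47582405 on the plus strand, also 250 to 31 bases before the start, with 2 GC boxes on the minus strand. The PLAUR stretch is chr19:43670338-43670367 on the minus strand, 198 to 169 bases before the RefSeq start, with 1 AP-1 site. It lies in an exon of a longer GENCODE transcript of PLAUR.
MMP14: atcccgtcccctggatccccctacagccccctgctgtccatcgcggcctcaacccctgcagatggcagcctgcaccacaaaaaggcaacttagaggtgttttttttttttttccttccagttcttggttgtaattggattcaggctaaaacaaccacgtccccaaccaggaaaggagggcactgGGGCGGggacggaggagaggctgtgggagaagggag
TIMP1: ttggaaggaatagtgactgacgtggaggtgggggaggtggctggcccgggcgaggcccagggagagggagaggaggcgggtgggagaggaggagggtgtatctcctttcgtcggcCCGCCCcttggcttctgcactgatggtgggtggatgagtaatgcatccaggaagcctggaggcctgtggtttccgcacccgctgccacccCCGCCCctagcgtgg
PLAUR: atcacaactccaTGAGTCAgggccgagcca
Among the members with a window, PLAUR alone held the AP-1 letters, which 7.71% of all 35116 windows held. The GC box letters were found in windows of MMP14, TIMP1, TIMP3 and PLAU, and in 45.0% of all windows. The TATA box letters were in 11.5% of all windows and in none of these 6. Such a match describes the letters in the window and is no measured binding site.

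Libraries held 15941255 to 33866644 counts, and a count of 0 allows up to 3 counts, 0.089 to 0.188 CPM (counts scaled to an equal library total), a floor that covers counting error only. The labels were checked against marker genes. In HT29 all 5 epithelial markers (EPCAM, KRT20, CDH1, VIL1, CDX2) were over 1 CPM, and in SW1783 none was. SW1783 had VIM, CD44 and COL1A2 at medians of 4534, 2694 and 2022 CPM, while the astrocyte markers GFAP and S100B were near 0, at medians of 0.088 and 0.083 CPM. Of 5 endothelial markers, KDR and TEK had medians of 27.8 and 1.24 CPM in SW1783, and PECAM1, VWF and CDH5 of 0.557, 0.123 and 0. In HT29 only PECAM1 was over 1 CPM, at a median of 1.82. Leukocyte markers are given further on. Replicate 2 of the high dose in HT29 stood apart from both other replicates, with a dispersion index of 79.5 and 80.6 over all genes (1 is sampling noise alone) against 11.3 between the other 2. In both lines, vehicle libraries of batches A and B with the same replicate number were more alike (index 1.47 to 1.68) than any other pair of vehicle libraries (2.13 to 19.8). The sources used here do not say why, and the vehicles of both batches were not counted as independent of each other.

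All 9 members were expressed in SW1783, whereas HT29 expressed mainly TIMP1, TIMP2 and PLAUR. To compare genes with each other, counts were divided by exonic length and scaled to an equal total within each library, as TPM. In vehicle-treated SW1783 of batch B, TIMP1 led with 2647 ± 15.3 TPM (SD, n = 3), above MMP14 with 612 ± 4.96 and TIMP2 with 422 ± 6.26. MMP2 followed with 287 ± 3.18 TPM, PLAU with 131 ± 3.55, MMP1 with 79.5 ± 0.764 and PLAUR with 54.9 ± 1.18. TIMP3, an inhibitor that binds to the matrix, had 40.7 ± 0.505 TPM and MMP3 23.2 ± 1.99. This order was the same in all 6 groups of SW1783. The TPM ranges of neighbours in it did not overlap, except for PLAU and MMP1 with wortmannin.

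In vehicle-treated HT29 of batch B, TIMP1 led again, with 196 ± 15.2 TPM (SD, n = 3), ahead of TIMP2 with 23.7 ± 2.17 and PLAUR with 18.1 ± 1.12. MMP14 had 2.0 ± 0.319 TPM, PLAU 0.345 ± 0.171 and MMP2 0.184 ± 0.122, and the ranges of PLAU and MMP2 overlapped. The other members were at or near the counting floor in all 18 HT29 libraries. MMP1 had 0 to 2 counts, MMP3 had 1 count in 1 library, TIMP3 had 2 counts in 1 library, and MMP3 and TIMP3 were at 0 in the other 17 libraries each. At the high dose the mean TPM of PLAUR lay above that of TIMP2, with overlapping ranges, and this order rested on replicate 2, since without it PLAUR had 20.6 and TIMP2 23.7 TPM.

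**Figure D1:**
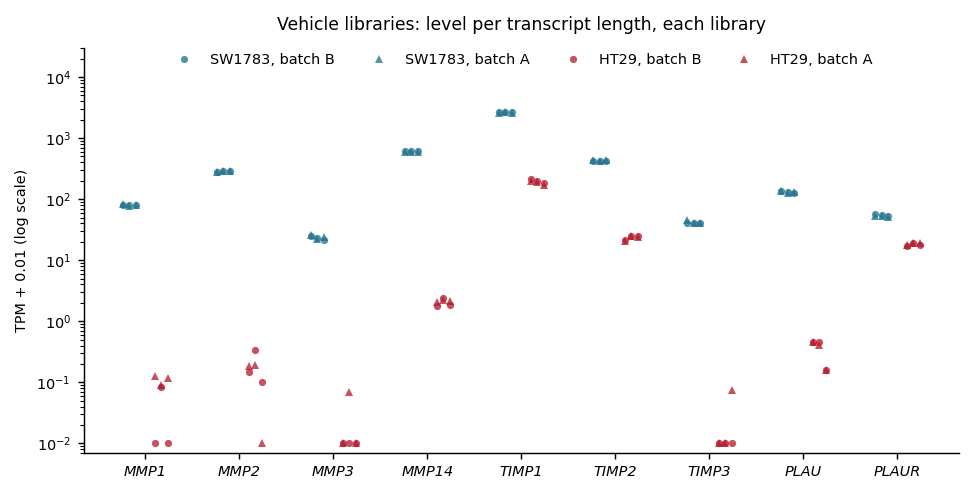
Levels of the 9 members in vehicle-treated cells, as TPM + 0.01 on a logarithmic axis, with 1 point per library, triangles for batch A and circles for batch B. TIMP1 is the highest member in both lines, and MMP3 and TIMP3 lie at or near the bottom of the axis in HT29 only. MMP1 in HT29 has 0 to 0.074 TPM in batch B and 0.079 to 0.119 in batch A, where MMP2 has 0 to 0.183.

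The test between the lines used the batch B vehicles and the Wald test of DESeq2, with p-values adjusted over all genes by the Benjamini-Hochberg method. By the study's methods, the lines had different media and plating densities, and only HT29 was kept with carbon dioxide. Line and culture conditions cannot be told apart, here or in the interactions further on. A gene was called when its adjusted p-value was under 0.05 and its change over 1.5-fold in either direction. All 9 members were called higher in SW1783, where 27.5% of all genes tested were. PLAUR differed least, by 1.29 ± 0.07 on the log2 scale (SE), a fold of 2.44 (95% interval 2.21 to 2.69). TIMP1 was 10.8-fold (9.55 to 12.2) and TIMP2 14.3-fold (13.3 to 15.3) higher in SW1783, and MMP14 242-fold (208 to 280). MMP2, with 21265 counts over the 3 SW1783 libraries against 22 in HT29, differed by 10.15 ± 0.31 on the log2 scale. Of these 22 counts 15 came from replicate 2, without which the difference was 10.94. PLAU, with 6109 against 24 counts, differed by 8.23 ± 0.30. MMP1 had 3431 counts against 2, a ratio per library total of 1990 with a counting interval of 549 to 16400. MMP3 and TIMP3 were at 0 in HT29, and against a floor of 3 counts over the group they were at least 262-fold and 1140-fold higher in SW1783.

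With the high ACD dose in SW1783, 3 members were called higher, the collagenase MMP1, the membrane protease MMP14 and the urokinase receptor PLAUR, and none was called lower. Over all genes tested in this comparison, 8.39% were called higher and 9.27% lower. By adjusted p-value alone, TIMP1 and PLAU rose as well and MMP2 fell, so that 5 members rose (23.1% of all genes) and 1 fell (21.8%), while MMP3, TIMP2 and TIMP3 did not pass the test. The median log2 change of the 9 members was 0.29, and that of all genes tested was -0.01. The 3 doses were compared with the same 3 vehicle libraries, so their values are given side by side. The values below are counts divided by DESeq2's size factors (normalized counts), which are set within a batch and line and do not compare genes with each other. Whether groups overlapped is given here and below as a description of the libraries. The share of all genes whose groups did not overlap was not counted.

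MMP1, which cleaves fibrillar collagen, had 1121, 1108 and 1116 normalized counts with vehicle, 1026, 1132 and 1144 at the low dose, 1195, 1158 and 1179 at the medium dose and 1821, 2059 and 1902 at the high dose. The high dose libraries lay above all others, and the low dose libraries overlapped with vehicle. From 1115 ± 6.4 with vehicle to 1927 ± 121 (SD, n = 3) at the high dose, MMP1 rose 1.73-fold (95% interval 1.6 to 1.87), a log2 change of 0.79 ± 0.06 (SE, DESeq2 adjusted p = 7.08e-42). At the medium dose the log2 change was 0.08 (adjusted p = 0.356). As TPM, the medium dose libraries lay below vehicle (69.2 to 72.0 against 78.7 to 80.2) and the high dose libraries above it (111 to 126). MMP1 was also the only member called between the high and medium doses, at 0.71 ± 0.06 on the log2 scale (adjusted p = 4.66e-34).

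MMP3, a protease with broad substrates that also activates other MMPs, had 239, 218 and 204 normalized counts with vehicle, 196, 210.1 and 199.9 with low, 218, 234 and 232 with medium and 243, 253 and 288 with high ACD. The high dose libraries lay above the vehicle libraries, but as TPM the ranges overlapped (21.8 to 25.8 against 21.3 to 25.2). The log2 change of 0.25 ± 0.12 did not pass the test (adjusted p = 0.077). It passed with edgeR (adjusted p = 0.00797) and, narrowly, with a filter for low counts (0.0485). It did not pass with total-count scaling (0.14, adjusted p = 0.388), the replicate block (0.143) or only the groups compared (0.126). With single libraries left out the adjusted p-value was 0.0629 to 0.344.

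MMP14 had 14371, 14331 and 14784 normalized counts with vehicle, 14055, 14634 and 14029 at the low dose, 16799, 16646 and 15924 at the medium dose and 22265, 21307 and 22236 at the high dose. Medium dose libraries lay above vehicle, and high dose libraries above medium, without overlap. The means went from 14495 ± 251 with vehicle to 16456 ± 468 and 21936 ± 545 (SD, n = 3). On the log2 scale MMP14 rose by 0.18 at the medium dose (adjusted p = 6.41e-10) and by 0.60 ± 0.03 at the high dose (adjusted p = 1.75e-104), the latter a fold of 1.51, just past the limit for a call. The step from medium to high was 0.41 (adjusted p = 1.13e-50). With total-count scaling, described further on, the change at the medium dose was 0.07 (adjusted p = 0.0201). In TPM the medium dose libraries lay below vehicle (571 to 599 against 609 to 618) and the high dose libraries above it (774 to 802).

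MMP2, the gelatinase that MMP14 activates, moved the other way. It had 6801, 6878 and 7053 normalized counts with vehicle, 6751, 6524 and 6806 at the low dose, 6186, 6202 and 6290 at the medium dose and 5549, 5498 and 5855 at the high dose. Medium and high dose libraries lay below all vehicle libraries. In log2 units MMP2 fell by 0.15 at the medium dose (adjusted p = 9.24e-06) and by 0.29 ± 0.03 at the high dose (adjusted p = 7.96e-21), less than the 1.5-fold of a call.

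Of the inhibitors, TIMP1 had 19611, 19352 and 19859.9 normalized counts with vehicle, 19936, 18818 and 19388 at the low dose, 21399, 21411 and 21330.4 at the medium dose and 23736, 24505 and 23758 at the high dose. Its groups from vehicle to medium and high did not overlap. In log2 units TIMP1 rose by 0.12 at the medium dose (adjusted p = 1.34e-06) and by 0.29 ± 0.02 at the high dose (adjusted p = 1.46e-34), short of a call. With total-count scaling, described further on, the change at the medium dose was 0.01 (adjusted p = 0.681). As TPM, the medium dose libraries lay below vehicle (2425 to 2445 against 2629 to 2658) and the high dose libraries above it (2732 to 2847).

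TIMP2, the bridge between MMP14 and MMP2, had 13402, 13127 and 13751 normalized counts with vehicle, 13864, 13788 and 13365 with low, 13108, 13744 and 13562 with medium and 12537, 12851 and 13198 with high ACD. TIMP3 had 961, 938 and 975 with vehicle, 1039, 909 and 916 with low, 1055, 1041 and 948 with medium and 967, 929 and 929.7 with high ACD. For both genes the high dose overlapped with vehicle in normalized counts, but not in TPM. There the high dose libraries of both genes lay below vehicle. TIMP2 had 336 to 353 TPM against 415 to 428, and TIMP3 33.6 to 35.0 against 40.1 to 41.0. At the high dose their log2 changes were -0.06 ± 0.03 (adjusted p = 0.0567) and -0.03 ± 0.07 (adjusted p = 0.804), with neither passing the test.

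PLAU, the activator, was the member whose direction differed between doses. It had 2033, 1969 and 1955 normalized counts with vehicle, 1587, 1703 and 1593 at the low dose, 1746, 1746 and 1835 at the medium dose and 2576, 2659 and 2614 at the high dose. Low and medium dose libraries lay below all vehicle libraries and high dose libraries above them. PLAU fell by 0.29 ± 0.05 on the log2 scale at the low dose (adjusted p = 7.79e-08) and by 0.16 at the medium dose (adjusted p = 0.00214), and rose by 0.40 ± 0.04 at the high dose (adjusted p = 3.46e-19). Tested directly, high was above medium by 0.56 (adjusted p = 1.29e-35).

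PLAUR, which anchors PLAU to the cell surface, had 1278, 1241 and 1243 normalized counts with vehicle, 1160, 1153 and 1270.4 at the low dose, 1325, 1306 and 1394 at the medium dose and 1917, 1934 and 1930.5 at the high dose. The high dose libraries lay close together and above all others. PLAUR rose 1.54-fold at the high dose, a log2 change of 0.62 ± 0.05 (adjusted p = 6.7e-33), and at the medium dose its log2 change was 0.10 (adjusted p = 0.157). As TPM, the medium dose libraries lay below vehicle (48.0 to 51.8 against 53.9 to 56.2) and the high dose libraries above it (71.7 to 72.9).

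**Figure D2:**
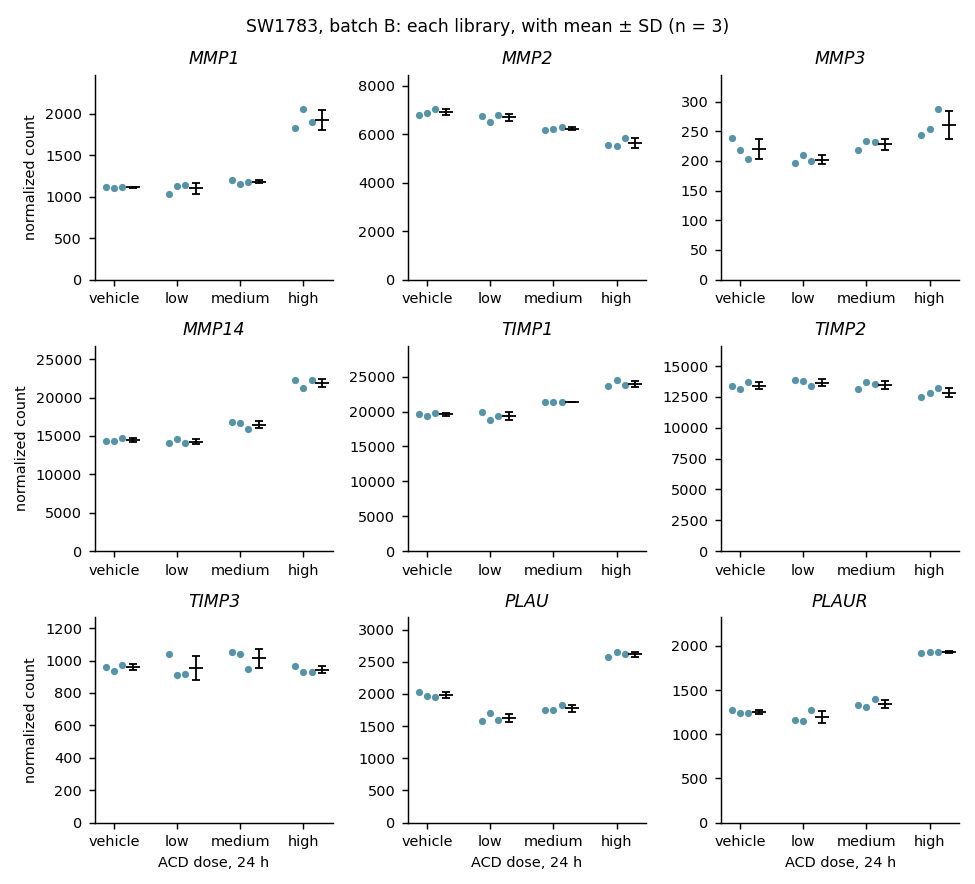
Normalized counts of the 9 members in SW1783 of batch B by ACD dose, 1 panel per gene with its own axis, points for the libraries and bars for the mean ± SD of 3. MMP1, MMP14 and PLAUR stand highest at 500 µg/mL, MMP2 lowest, and PLAU lies below vehicle at 20 and 100 µg/mL and above it at 500 µg/mL.

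At the medium dose none of the 9 members was called by DESeq2 or by edgeR (3.79% of all genes were called), and 4 members had an unadjusted p-value under 0.05. These were the 4 that also passed the adjusted p-value alone, with MMP14 and TIMP1 rising (14.7% of all genes) and MMP2 and PLAU falling (14.1%). With total-count scaling, described further on, TIMP1 no longer passed and TIMP2 fell, with a log2 change of -0.105 (adjusted p = 0.000318). At the low dose none was called by either tool (0.118% of all genes) and 1 member had an unadjusted p-value under 0.05. This was PLAU, the only one of the 8 members with an adjusted p-value to pass it (1.24% of all genes fell). The 7 others had adjusted p-values of 0.527 to 0.99 at the low dose, and MMP3 was given none. Counts at an unadjusted p-value under 0.05, here and below, are given without the share of all genes. They describe the members and lists and do not show whether these differ from other genes. Between the high and medium doses, where 9.75% of all genes were called, MMP1 was called higher and 5 members rose by adjusted p-value (20.0% of all genes) while MMP2 and TIMP2 fell (18.8%). TIMP2 passed narrowly (adjusted p = 0.0408) and did not pass with edgeR (adjusted p = 0.0544), with the replicate block (0.0536) or without replicate 1 (0.208) or 2 (0.0942) of the high dose or replicate 2 (0.207) or 3 (0.128) of the medium dose.

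The calls of MMP14 and PLAUR depended on how libraries were scaled. The mitochondrial ribosomal RNAs MT-RNR1 and MT-RNR2 took 0.932% of the counts with vehicle, 3.14% with low, 7.83% with medium and 5.93% with high ACD (means of 3). With scaling by total counts, the median log2 change of all genes at the high dose shifted by -0.115, and the called genes went from 1685 higher and 1861 lower to 1294 and 2480. MMP14 then rose by 0.48 and PLAUR by 0.51, below the fold limit, so that MMP1 alone was called of the 9, and TIMP2 fell by 0.17 (adjusted p = 1.7e-10). CD68 and PTPRC, usual markers of leukocytes, were also detected in SW1783, and the summed CPM of the 5 leukocyte markers was 156 to 163 with vehicle and 181 to 193 at the high dose, with CD3E at 0 in all 18 libraries of the line. The higher sum came from CD68 alone, at 139 to 146 CPM with vehicle and 176 to 188 at the high dose. PTPRC went the other way, from 12.7 to 14.2 CPM with vehicle and 3.28 to 4.91 at the high dose, as did CSF1R, from 3.0 to 3.79 and 1.32 to 1.58. The part of the ribosomal RNAs or of these markers in the changes was not tested.

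Wortmannin gave another pattern in SW1783. TIMP1 alone of the 9 was called, and it was higher, where 2.71% of all genes were called. By adjusted p-value alone 6 members rose (13.5% of all genes) and PLAU fell (19.6%), with a median log2 change of 0.33 over the 9. TIMP1 had 22267, 22481 and 22110 normalized counts with vehicle and 34644, 35000.0 and 35947 with wortmannin, and rose 1.58-fold, by 0.66 ± 0.02 on the log2 scale (adjusted p = 3.4e-265). TIMP2 had 15933, 15496 and 16077 with vehicle and 19429, 20017 and 20111 with wortmannin, and rose by 0.33 (adjusted p = 5.23e-49). For both inhibitors the groups did not overlap. TIMP3 had 1245, 1098 and 1117 with vehicle and 1268, 1257 and 1281 with wortmannin, groups that did not overlap either, but its log2 change of 0.14 did not pass the test (adjusted p = 0.0653), though it did with edgeR (adjusted p = 0.0135).

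Among the proteases, MMP1 went from 1358, 1262 and 1300 normalized counts with vehicle to 1902, 1822 and 1879 with wortmannin, a log2 change of 0.52 ± 0.05 (adjusted p = 8.06e-22). MMP2 went from 7871, 7951 and 8188 to 10587, 11049.9 and 10949.7, a log2 change of 0.44 ± 0.03 (adjusted p = 3.13e-62). MMP14 went from 16433, 16355 and 16259.8 to 20716, 20549 and 20751, a log2 change of 0.34 (adjusted p = 1.59e-72). All 3 proteases rose without overlap of the groups and without reaching 1.5-fold. MMP3 had 285, 244 and 262 with vehicle and 287, 274 and 254 with wortmannin, overlapping ranges with a log2 change of 0.05 (adjusted p = 0.82).

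In the urokinase pair, PLAU had 2392, 2200 and 2303 normalized counts with vehicle and 2130.0, 2009.9 and 2006 with wortmannin, and fell by 0.16 on the log2 scale (adjusted p = 0.0022). PLAUR had 1390.3, 1402 and 1375 with vehicle and 1625, 1646 and 1556 with wortmannin, and rose by 0.21 (adjusted p = 0.000287). In neither did the groups overlap. Beside the high ACD dose, MMP2 had a log2 change of 0.44 with wortmannin and -0.29 with ACD, and PLAU of -0.16 with wortmannin and 0.40 with ACD. These contrasts used vehicle libraries of different batches, and the difference between the agents was not tested. The summed leukocyte markers were 152 to 159 CPM with vehicle of batch A and 169 to 177 with wortmannin, with CD68 higher (135 to 143 and 155 to 162) and PTPRC lower (12.8 to 14.0 and 9.41 to 11.2), and their part was not tested.

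**Figure D3:**
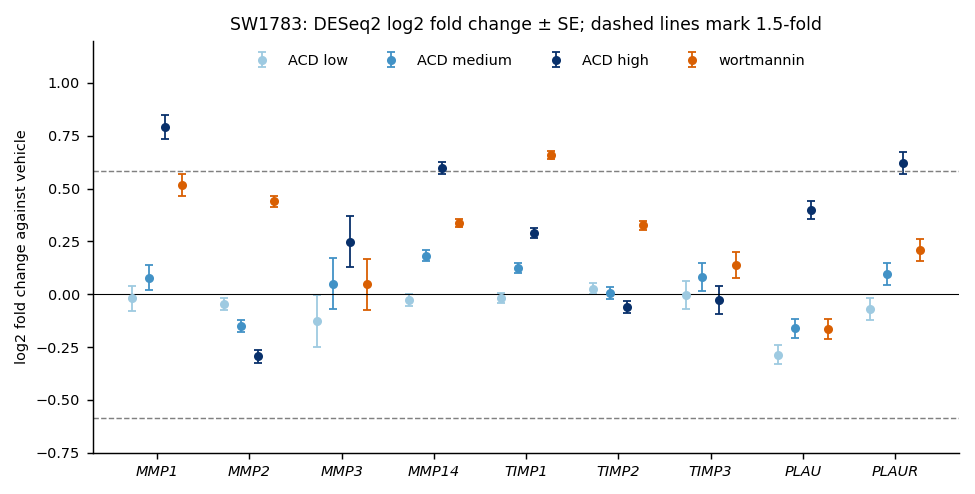
Log2 changes against the vehicle of the same batch in SW1783, with SE, for the low, medium and high ACD doses and wortmannin. The dashed lines mark 1.5-fold. MMP1, MMP14 and PLAUR pass it at the high dose and TIMP1 with wortmannin, and MMP2 lies below 0 at the high dose and above 0 with wortmannin.

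In HT29 PLAUR rose at the high dose, by less than 1.5-fold, and no member was called by DESeq2 or edgeR (3.12% of all genes were called). An unadjusted p-value under 0.05 was found for 2 members, PLAUR and PLAU. PLAUR had 619.6, 619 and 586 normalized counts with vehicle, 647, 561 and 654 at the low dose, 634, 691 and 643 at the medium dose and 749.9, 927 and 759 at the high dose. The medium and high dose libraries lay above vehicle. PLAUR rose 1.33-fold at the high dose (95% interval 1.15 to 1.53), by 0.41 ± 0.10 on the log2 scale (adjusted p = 0.00262), as 1 of the 5 members with an adjusted p-value (4.43% of all genes rose). Without replicate 2 it was 0.31 (adjusted p = 0.00899). With only the 2 groups in the fit the adjusted p-value was 0.0681, and with total-count scaling, which shifted the median of all genes by -0.147, the change was 0.26 (adjusted p = 0.0515). The mitochondrial ribosomal RNAs took 1.14% to 1.22% of the counts with vehicle and 11.3% to 12.5% at this dose, and their part was not tested.

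PLAU in HT29 was near the floor. It had 10.6, 9.51 and 3.19 normalized counts with vehicle, 5.81, 6.83 and 13.0 at the low dose, 4.46, 7.11 and 8.96 at the medium dose and 15.3, 23.9 and 13.4 at the high dose. The high dose libraries lay above vehicle, but the log2 change of 1.13 ± 0.56 did not pass the test (adjusted p = 0.226). The highest value was that of replicate 2, and without it the change was 0.88 ± 0.67, with no adjusted p-value. MMP14 had 67.5, 79.0 and 62.8 with vehicle and 71.0, 65.0 and 82.1 at the high dose, overlapping ranges with a fold of 1.05 (95% interval 0.807 to 1.37). Without replicate 2 its log2 change was 0.13 (adjusted p = 0.759), and its interaction, given further on, 0.43 (adjusted p = 0.0197).

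TIMP1 in HT29 had 2498, 2038 and 1920.5 normalized counts with vehicle, 2003, 1989 and 2048 with low, 2079, 2015 and 2148 with medium and 2168, 2369 and 2185 with high ACD, with a fold of 1.04 at the high dose (0.914 to 1.19). Without replicate 2 its log2 change there was 0.02 (adjusted p = 0.925). TIMP2 had 1078, 1126 and 1132 with vehicle, 1127, 1078 and 1127 with low, 1218, 1085 and 1143 with medium and 1158, 668 and 1251 with high ACD. The value of 668 came from replicate 2, the library that stood apart, and the log2 change of TIMP2 was -0.11 ± 0.18 with it (adjusted p = 0.82) and 0.12 without it (adjusted p = 0.308). At the medium and low doses no member was called by either tool (0.785% and 0.279% of all genes) and none had an unadjusted p-value under 0.05. Between the high and medium doses none was called by either tool (0.712% of all genes), with 2 members at an unadjusted p-value under 0.05.

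With wortmannin in HT29, TIMP2 rose. It had 956, 1027 and 1006 normalized counts with vehicle and 1275, 1308 and 1283 with wortmannin, without overlap, a rise of 0.37 ± 0.07 on the log2 scale (adjusted p = 8.13e-06), among 8.12% of all genes that rose. No member was called by DESeq2 or edgeR (2.75% of all genes were), and 2 had an unadjusted p-value under 0.05. MMP14 had 71.2, 67.1 and 65.7 with vehicle and 81.1, 98.3 and 110.4 with wortmannin, groups that did not overlap, with a log2 change of 0.51 ± 0.22 (adjusted p = 0.091, and 0.0332 with edgeR). With total-count scaling it was 0.56 (adjusted p = 0.06), and with the replicate block 0.50 (adjusted p = 0.36). TIMP1 had 2206, 1851 and 1649 with vehicle and 1705, 1764 and 1742 with wortmannin, within the range of vehicle (log2 change -0.13, adjusted p = 0.399). PLAUR had 604, 571 and 563 with vehicle and 686, 583 and 605 with wortmannin, overlapping ranges with a log2 change of 0.11 (adjusted p = 0.492).

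**Figure D4:**
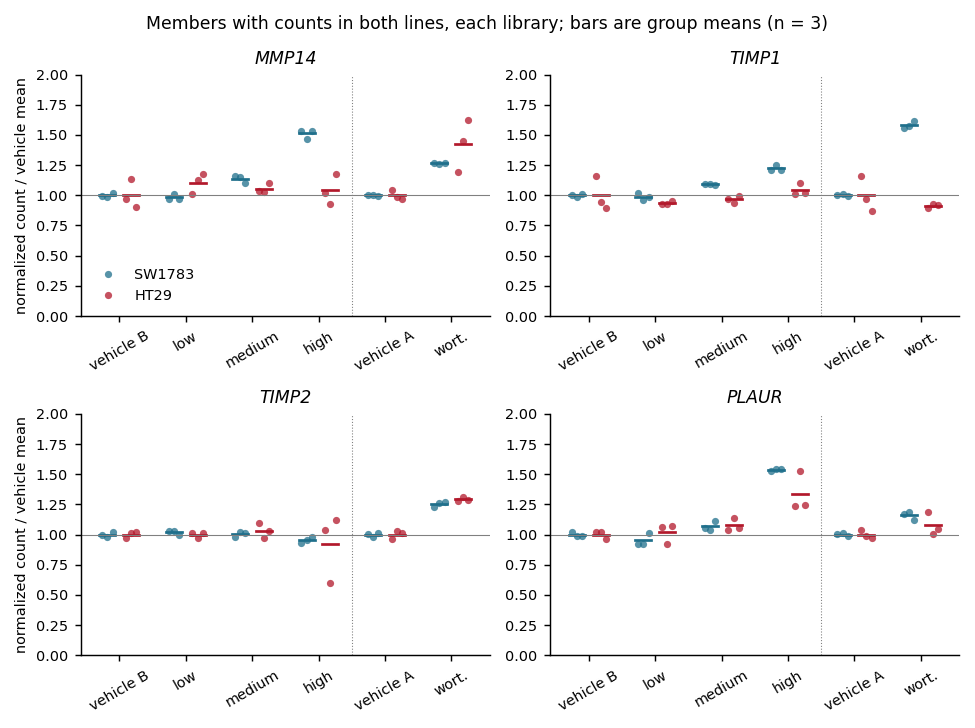
Normalized counts of MMP14, TIMP1, TIMP2 and PLAUR divided by the mean of the vehicle of the same line and batch, for all groups of both lines, 1 point per library. TIMP1 lies above 1 with wortmannin in SW1783 and not in HT29, PLAUR lies above 1 at the high ACD dose in both lines, and the low TIMP2 point at the high dose in HT29 is replicate 2.

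Whether a response differed between the lines was tested as an interaction, for the members with enough counts in HT29. With wortmannin, TIMP1 was called, with a response 0.76 ± 0.10 higher on the log2 scale in SW1783 (adjusted p = 3.49e-13), where 3.39% of all genes were called. The same interaction for TIMP2 was -0.06 (adjusted p = 0.525), for MMP14 -0.19 (adjusted p = 0.39) and for PLAUR 0.08 (adjusted p = 0.649). At the high dose no member was called by DESeq2 or edgeR (14.6% of all genes were), and 2 had an unadjusted p-value under 0.05. MMP14 passed by adjusted p-value, with a response 0.48 ± 0.15 higher in SW1783 (adjusted p = 0.00597, 12.6% of all genes), but not without replicate 2 of the HT29 vehicle, when it was 0.35 (adjusted p = 0.141). PLAUR rose in both lines at the high dose, and the difference of 0.18 ± 0.10 did not pass the test (adjusted p = 0.172). It passed with total-count scaling, at 0.25 (adjusted p = 0.0268), and without replicate 2 of the HT29 high dose, at 0.26 (adjusted p = 0.00981). The difference for TIMP1 was 0.19 (adjusted p = 0.0876), and it too passed with total-count scaling, at 0.26 (adjusted p = 0.00283), and without that library, at 0.22 (adjusted p = 0.0222). For TIMP2 the difference was 0.00, and without that library it was -0.23 (adjusted p = 0.00133). The differences at the high dose thus depended on this library and on the scaling, though none of these 3 reached 1.5-fold. At the medium and low doses no member was called or had an unadjusted p-value under 0.05 by DESeq2, and edgeR called none (3.41% and 0.261% of all genes were called).

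Other genes of the system were counted in lists. Of the 19 other matrix metalloproteinases, none was called by DESeq2 at any ACD dose in either line. At the high dose in SW1783, 14 of them had an adjusted p-value and 3 fell by it (21.8% of all genes). An unadjusted p-value under 0.05 was found for 4, edgeR called 1, and the median log2 change of the list was -0.20 against -0.01 for all genes. In the other 5 ACD comparisons 0 to 3 of the 19 had an unadjusted p-value under 0.05, and edgeR called 1, at the medium dose in SW1783. With wortmannin in SW1783, where 2.71% of all genes were called, 2 of the 19 were called higher. These were MMP11, a stromelysin, at 0.60 ± 0.22, and MMP17, a membrane-anchored MMP, at 0.75 ± 0.29 on the log2 scale, both of low counts and named after their values were seen.

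Of 6 other genes that control MMPs, none was called at the high dose in SW1783 by either tool, with 3 at an unadjusted p-value under 0.05. TIMP4, the remaining TIMP, was called lower by DESeq2 with wortmannin in SW1783, with 237 ± 4.1 normalized counts in vehicle and 158 ± 11.9 in wortmannin libraries (SD, n = 3) and a log2 change of -0.59 ± 0.14 (adjusted p = 0.000157). This was just past the limit for a call, and edgeR called none of the 6 in this comparison. In HT29 TIMP4 was called higher at the high dose, by 0.75 ± 0.21 (adjusted p = 0.00872), also named after its values were seen, but not without replicate 2, when the change was 0.55 (adjusted p = 0.0666). It rose in SW1783 at this dose as well, by 0.53 ± 0.12 (adjusted p = 3.28e-05), and the difference between the lines of -0.25 did not pass the test (adjusted p = 0.418). TIMP1 and TIMP4 thus had changes of opposite sign with wortmannin in SW1783.

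Of 13 other genes of plasminogen activation, 12 had an adjusted p-value at the high dose in SW1783, where 4 rose and 4 fell by it, with a median log2 change of -0.12. Over all genes tested, 23.1% rose and 21.8% fell by it. The only one called was S100A10, part of a plasminogen receptor on the cell surface. Its normalized count was 3130.2 ± 38.3 with vehicle and 1986 ± 85.1 at this dose (SD, n = 3), with a log2 change of -0.66 ± 0.04 (adjusted p = 6.67e-49), while PLAU and PLAUR rose. In HT29 the only one called at the high dose was SERPINE2, an inhibitor of urokinase and thrombin, which rose by 0.67 ± 0.12 (adjusted p = 5.64e-07), and by 0.66 without replicate 2 (adjusted p = 4.22e-05). The interaction at the high dose was called for SERPINE2 at -0.62 ± 0.09 (adjusted p = 1.02e-10) and for ANXA2, the partner of S100A10, at -0.68 ± 0.15 (adjusted p = 4.66e-05), that is, lower in SW1783. Without replicate 2 that of ANXA2 was -0.45 (adjusted p = 1.21e-13), under the fold limit. The genes of the list then called were SERPINE2, LRP1 at -0.77 (adjusted p = 1.05e-11) and MRC2 at -0.59 (adjusted p = 0.0161). S100A10 fell in HT29 as well without this library, with a log2 change of -0.52 at the high dose (adjusted p = 2.28e-09), short of a call. With wortmannin none was called by either tool in SW1783, with 8 at an unadjusted p-value under 0.05, or in HT29, with 5.

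Of 28 adamalysins, the related ADAM and ADAMTS metalloproteinases, 4 were called higher and 6 lower at the high dose in SW1783, out of 25 with an adjusted p-value. Over all genes tested, 8.39% were called higher and 9.27% lower. ADAMTS6 had the largest rise among the list's genes with a mean of 100 or more, with 364 ± 30.9 normalized counts for vehicle and 1392 ± 25.2 for the high dose (SD, n = 3) and a log2 change of 1.93 ± 0.07 (adjusted p = 2.36e-157). ADAMTS15, which cleaves proteoglycans, fell from a mean of 537 to one of 187, a log2 change of -1.52 ± 0.10 (adjusted p = 2.4e-52). ADAM17, the enzyme that sheds TNF and ligands of EGFR, rose by 1.24 ± 0.05 (adjusted p = 9.23e-130). At the medium dose ADAMTS6 alone of the list was called, at 1.21 ± 0.07 (adjusted p = 9.65e-58). In HT29 no adamalysin was called at the high dose by either tool, with 6 at an unadjusted p-value under 0.05, and the interaction at the high dose was called for 3 of the list, ADAMTS6 at 2.32 ± 0.13 (adjusted p = 4.04e-67), ADAM17 at 0.87 ± 0.12 (adjusted p = 1.61e-12) and, in the other direction, ADAM19 at -0.64 ± 0.18 (adjusted p = 0.00317). All 3 were also called without replicate 2 of the HT29 high dose. Over all genes tested, 14.6% were called in this interaction.

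Genes with the most similar pattern were taken for the most abundant member of each role, by Pearson's r of log2(normalized count + 1) over the 18 libraries of a line, among genes with a mean of at least 100. These libraries share groups, batches and the alike vehicles, so r is a description. In SW1783, ENSG00000130723 (r = 0.993), DPY19L3 (0.981) and GARRE1 (0.978) were most like MMP14. MT2A (0.977), CTSB (0.975) and IGFBP1 (0.968) were most like TIMP1, and CEP95 (0.958), MDM2 (0.944) and ZBTB43 (0.943) were most like PLAU. In HT29, HM13 (0.965), IGFBP4 (0.922) and AGPAT2 (0.915) were most like TIMP1, and RFC3 (0.91), TAFAZZIN (0.908) and PMAIP1 (0.901) were most like PLAUR. MMP14 had a mean of 76.5 in HT29, below the limit.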

How the data were processed

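The members and lists were chosen with earlier results of these data known. The authors trimmed reads with Trim Galore, aligned them with STAR and quantified genes with RSEM on GRCh38. The submitters' processing notes name Trim Galore 0.6.5, STAR 2.7.3a and RSEM 1.3.3, and the study's methods name other versions of the first pair. The deposited table holds expected counts per gene and library, not normalized, of which 8.84% were not whole, and they were rounded here. Groups came from the labels. The 12 batch B libraries of a line shared a fit, the 6 of batch A another, and interactions used both lines of a batch. Tests were two-sided Wald tests of DESeq2 1.42.0 in R 4.3.3 over the whole table, with default filtering, and were checked on simulated data. Alternatives were edgeR 4.0.16 (quasi-likelihood), its TMM factors, a filter of 10 counts in 3 libraries, no fold limit, a replicate block, smaller fits, each library left out and, chosen after seeing the data, total-count scaling. All 9 members are named. From a list, up to 3 called genes of the largest change with a mean of 100 or more are named. Reads with several positions were divided by RSEM's model. Depth is given above.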

Additional observations from a re-analysis of the deposited data

Results flagged for a closer look

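The response of TIMP1 to wortmannin differed between the lines, by 0.764 on the log2 scale (SW1783 minus HT29), with a range of 0.659 to 0.845 when single libraries were left out. TIMP1 was above all vehicle libraries in 3 of 3 SW1783 libraries and within their range in HT29. The response of MMP14 to the high ACD dose differed by 0.479, with a range of 0.348 to 0.606 when single libraries were left out. Without HT29 high dose replicate 3 it passed the limit for a call, and without HT29 vehicle replicate 2 its adjusted p-value (DESeq2) was 0.141. HT29 held 38 to 111 counts of MMP14 per library.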

How the results depend on the processing

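Without the fold limit, the members called numbered 6 at the high, 4 at the medium and 1 at the low dose in SW1783, 7 between high and medium, 7 with wortmannin, 1 at the high dose and 1 with wortmannin in HT29, and 1 in the interaction at the high dose. Total-count scaling left 1 at the high dose in SW1783. Leaving out single libraries, the interaction at the high dose gave 0 to 1. With the replicate block 3 members were called at the high dose in SW1783, and the block changed no count of members called. Replicate numbers were not taken as pairs, since deviations of same-numbered libraries correlated at -0.118 to 0.053 in SW1783 and -0.459 to 0.326 in HT29.

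Some changes near 0 turned sign, and none of these was called either way. With total-count scaling these were MMP1 (-0.033), MMP3 (-0.06), PLAUR (-0.013), TIMP2 (-0.11) and TIMP3 (-0.029) at the medium dose and TIMP2 (-0.01) at the low dose in SW1783, and MMP14 (-0.071) and TIMP1 (-0.085) at the high dose and TIMP2 (0.012, and 0.0086 with TMM factors) at the low dose in HT29, with MMP14 (-0.125) and TIMP1 (-0.034) between high and medium in HT29, TIMP2 (-0.022) in the interaction at the low dose, and MMP2 near the counting floor of HT29 (-0.112 at the high dose, -0.074 between high and medium). When single libraries were left out, SW1783 ranges were -0.048 to 0.029 for MMP1, -0.038 to 0.0039 for TIMP1 and -0.07 to 0.03 for TIMP3 at the low dose, -0.00039 to 0.11 for MMP3 and -0.011 to 0.024 for TIMP2 at the medium dose, and -0.0092 to 0.105 for MMP3 with wortmannin. HT29 ranges were -0.043 to 0.185 for MMP14, -0.016 to 0.174 for TIMP1 and -0.277 to 0.115 for TIMP2 at the high dose, -0.01 to 0.179 for MMP14 and -0.121 to 0.071 for TIMP1 at the medium dose, and -0.0099 to 0.096 for PLAUR, -0.168 to 0.024 for TIMP1 and -0.023 to 0.02 for TIMP2 at the low dose. Though not called, TIMP2 at the medium dose in SW1783 passed by adjusted p-value with total-count scaling (DESeq2 adjusted p = 0.000318). The cause of these turns of sign was not tested. With total-count scaling the share of higher genes among all calls went from 47.5% to 34.3% at the high and from 61.3% to 35.8% at the medium dose in SW1783, from 43.5% to 20.2% at the high dose and from 72.1% to 85.0% with wortmannin in HT29, from 55.3% to 23.2% between high and medium in HT29, from 53.5% to 36.6% in the interaction at the medium dose, and from 46.9% to 56.5% in that at the high dose. Depth in HT29 limits MMP1, MMP2, MMP3, TIMP3 and PLAU.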
